A study of Mus musculus with 10 samples.

Results

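The 10 genes described here belong to the Lin28 and let-7 axis, and they were taken by symbol from TPM lists of 21853 protein-coding genes: Lin28a, Lin28b, Trim71, Dis3l2, Igf2bp1, Igf2bp2, Igf2bp3, Dicer1, Hmga2 and Arid3b. Most of them bind RNA or cut it, whereas Hmga2 and Arid3b bind DNA, so the set is named by its axis and not as RNA binders. All 10 were found in the lists and all 10 passed the filter on low values, with a lowest level of 3.56 TPM in any library. TPM is the abundance of a transcript scaled by its length and by the library's total. As a level per transcript length, it can be compared between genes. Between libraries it also depends on what else the library holds, and the fit used below applied no further scaling.

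The RNA came from 5 lines of J1 mouse embryonic stem cells (ESCs) in bulk, and each line gave 2 libraries. The study asked what loss of glycogen synthase and of the energy sensor AMPK, alone and combined, does to naïve ESCs. Naïve ESCs were wild-type J1 cells, GKO was a knockout of Gys1, AKO of AMPK and DKO of both. These lines shared a medium with serum, LIF and the inhibitors PD0325901 and CHIR99021 on gelatin. Primed ESCs (PJ1) were wild-type J1 cells kept on Matrigel with KnockOut Serum Replacement, bFgf and Activin, so that cell state and culture cannot be told apart. Per the methods, GKO was made through an indel in an exon of Gys1 and cloned, and AKO was made at Prkaa1, the gene of an AMPK catalytic subunit, with selection for an RFP reporter. Prkaa2, the gene of the other catalytic subunit, was not named as a target, so lines called without AMPK below are those targeted at Prkaa1. Which clones gave the 2 libraries of a line is not stated, so p-values measure only the spread between these samples, which may be technical.

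Lin28a and Lin28b bind the loop of the let-7 precursor. Lin28a recruits the uridyl transferases Tut4 and Tut7 to it, and the exonuclease Dis3l2 then degrades the tailed RNA. Without Lin28, Dicer1 cuts the precursor and mature let-7 silences mRNAs that hold a match to its seed. Lin28a, Lin28b, Trim71, the Igf2bp family, Hmga2 and Arid3b are textbook let-7 targets, so Lin28 and let-7 hold each other down. In early embryos Lin28 and Trim71 are high and mature let-7 is low, and the balance turns as cells differentiate.

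let-7 itself was not measured, since the lists hold protein-coding genes. Its sequences are shown because they define which members it can pair with. The RefSeq table (GRCm38.p6) held 11 mature miRNAs of the family, and 10 of them shared the seed GAGGUAG at bases 2 to 8, in capitals below. let-7j differed in the last base of the seed.
let-7a: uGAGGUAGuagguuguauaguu
let-7d: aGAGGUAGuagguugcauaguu
let-7g: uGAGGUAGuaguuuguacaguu
let-7i: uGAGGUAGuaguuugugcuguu
miR-98: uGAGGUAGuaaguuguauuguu
let-7j: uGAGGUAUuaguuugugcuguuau

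The letters GGAG in the precursor loop are the known contact of the Lin28 zinc knuckles. Between the mature arms, 8 of the 11 let-7 and miR-98 hairpins for which both arms were found held GGAG. Hairpins of let-7j and let-7k were not among the 11. Of the 61 hairpins in the table with 23 to 36 bases between their arms, let-7 included, 24.6% held GGAG there. Mirlet7g and Mirlet7i are shown as hairpins with GGAG (capitals), and Mirlet7b and Mir98 as hairpins without it between the arms.
Mirlet7g: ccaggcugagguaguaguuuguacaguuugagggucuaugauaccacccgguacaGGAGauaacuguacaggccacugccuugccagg
Mirlet7i: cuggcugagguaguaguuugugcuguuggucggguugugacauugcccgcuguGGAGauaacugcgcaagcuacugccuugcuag
Mirlet7b: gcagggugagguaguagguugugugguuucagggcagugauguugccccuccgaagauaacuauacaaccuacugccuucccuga
Mir98: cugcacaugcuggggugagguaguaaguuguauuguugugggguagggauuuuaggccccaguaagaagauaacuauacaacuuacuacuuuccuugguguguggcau

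A match to the seed, CTACCTC on the mRNA strand, was then searched in the annotated 3′ UTR of each member (GENCODE vM39, GRCm39). Of the 10 members, 8 held at least 1 match, against 9.78% of 21573 genes with a 3′ UTR. The members had been listed as let-7 axis genes, so the count describes the list. Lin28b, Trim71, Igf2bp1 and Hmga2 held 4 matches each, Lin28a held 2, and Igf2bp2, Igf2bp3 and Arid3b held 1 each. Among genes with a 3′ UTR within 20% of the same length, 0.119% had at least as many matches as Lin28b, 0.274% as Trim71, 0.135% as Igf2bp1 and 0.0368% as Hmga2. No match was found in the 3′ UTR of Dis3l2, which spans 352 bases, or in that of Dicer1, which spans 3851 bases.

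A match followed by A is the longer form of the site, and all 4 in Trim71 were of this form. The first of them in each member is shown in at most 30 bases with the site in capitals, and for Arid3b, which had only the short form, its single match. Each lies on the minus strand of GRCm39, in the 3′ UTR.
Lin28a, chr4:133732500-133732507: ttggagtgcacagcctgttgaaCTACCTCA
Lin28b, chr10:45257118-45257125: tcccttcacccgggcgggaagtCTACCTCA
Trim71, chr9:114341540-114341547: aaagtacaacattgcctaagtcCTACCTCA
Igf2bp1, chr11:95852604-95852611: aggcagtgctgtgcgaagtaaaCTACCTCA
Igf2bp2, chr16:21878223-21878230: gagaaaaacacacaaataaaagCTACCTCA
Igf2bp3, chr6:49063721-49063728: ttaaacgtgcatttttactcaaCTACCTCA
Hmga2, chr10:120200129-120200136: ggggcgccgacattcaatttCTACCTCAgc
Arid3b, chr9:57697645-57697651: aatgtttatatttcaataaagctCTACCTC

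**Figure D1:**
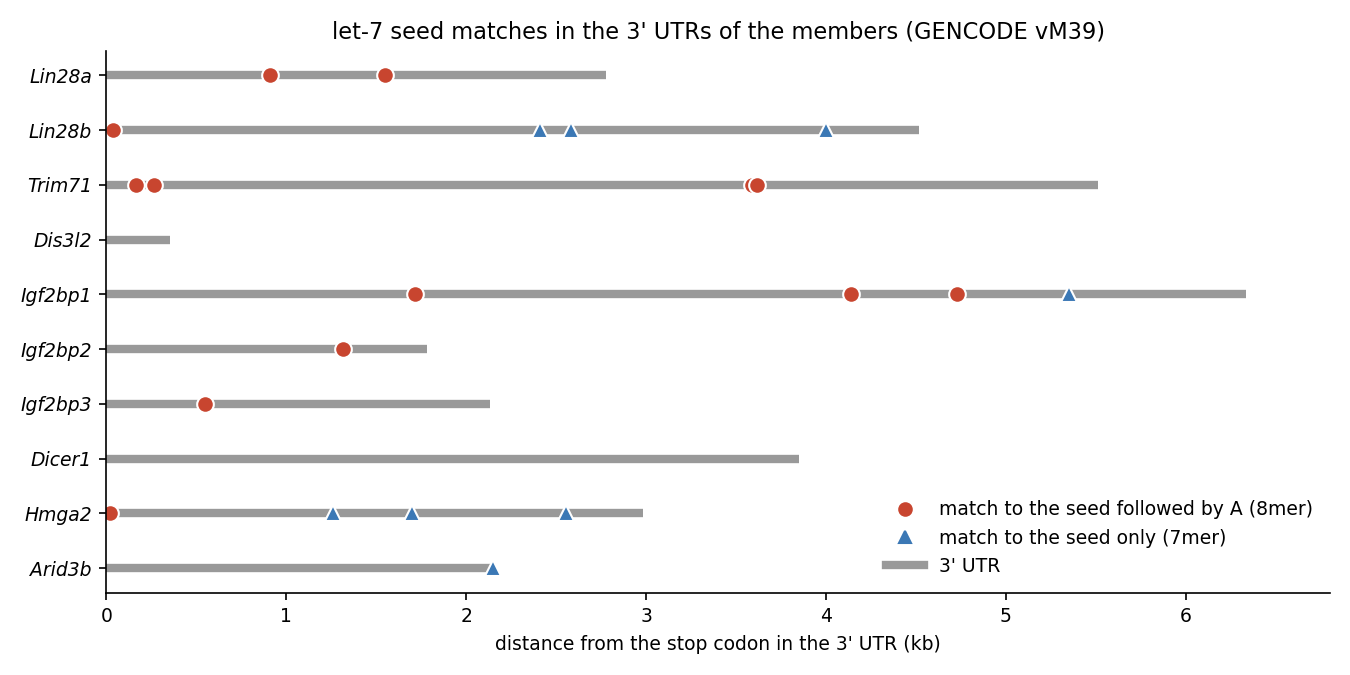
Position of let-7 seed matches in the 3′ UTR of each member, in kb from the stop codon; grey bars are the UTRs, circles are matches followed by A and triangles are the shorter form. Lin28b and Hmga2 each have a match that starts within the first 36 bases after the stop codon, and Dis3l2 and Dicer1 have none.

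Across the 10 libraries, 10537 to 11113 genes reached 1 TPM, and the TPM of the protein-coding list summed to 500162 to 578952. The depth of a library cannot be read from TPM. The 10 naïve pluripotency markers summed to 1741 to 1779 TPM in naïve ESCs and 170 to 180 in primed ESCs. In AKO, DKO and GKO they summed to 1795 to 1803, 1971 to 1984 and 1944 to 2025 TPM. The 10 primed markers summed to 54.5 TPM in naïve ESCs and 483 to 503 in primed ESCs. In AKO, DKO and GKO these summed to 46.2 to 47.4, 53.8 to 56.0 and 74.3 to 74.4 TPM. Prkaa1 had 15.5 and 16.6 TPM in naïve ESCs, 7.24 and 6.94 in AKO and 2.30 and 2.04 in DKO. Prkaa2 had 2.38 and 2.41 TPM in naïve ESCs, 2.71 and 2.44 in AKO, 3.27 and 3.29 in GKO, 3.29 and 3.10 in DKO, and 8.30 and 9.38 in primed ESCs. Gys1 mRNA in naïve ESCs was at 11.5 and 10.8 TPM, in GKO at 9.70 and 9.98 and in DKO at 12.1 and 11.7, so its mRNA level does not check the label of DKO. The median absolute log2 difference between replicates was 0.127 in primed ESCs and 0.0555 to 0.0704 in the other lines. Because the members were listed with results of these data known, their levels and differences are given as a description with standard errors (SE) and without p-values. In bulk RNA, fewer cells that express a gene and less RNA per cell cannot be told apart.

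Lin28a, on chromosome 4, was the most abundant member in naïve ESCs. It stood at 140 and 143 TPM in naïve ESCs, 123 and 134 in AKO, 165 and 159 in GKO, 112 and 113 in DKO, and 161 and 135 in primed ESCs. The GKO libraries lay above both naïve libraries and the AKO and DKO libraries lay below them, while the primed libraries spanned naïve and GKO. On the log2(TPM + 1) scale Lin28a differed from naïve ESCs by 0.19 (SE 0.0757) in GKO, -0.33 in DKO, -0.14 in AKO and 0.06 in primed ESCs. After quantile normalization the primed difference was 0.32 and the GKO difference 0.29, and both then passed the threshold, whereas without primed replicate 1 the primed difference was -0.06. GKO was 0.52 above DKO, a ratio of mean TPM of 1.44. The order of the line means was GKO, primed, naïve, AKO, DKO, and GKO with primed and primed with naïve overlapped.

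Lin28b, the paralog of Lin28a on chromosome 10, was the member that differed most between the states. The naïve libraries held 4.40 and 4.62 TPM, and the primed libraries held 41.1 and 36.9 TPM. The log2 difference was 2.86 (SE 0.0703), and the mean TPM was 8.65-fold higher in primed ESCs. GKO followed at 7.12 and 6.75 TPM, then AKO at 5.19 and 5.31 and DKO at 4.66 and 4.76. No pair of neighbouring lines in this order overlapped, although the steps among DKO, AKO and naïve ESCs were below 1 TPM. GKO lay 0.53 above naïve ESCs and 0.48 above DKO on the log2 scale, whereas DKO lay 0.05 above naïve ESCs.

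The balance within the Lin28 pair followed from these levels. Lin28b made up 3.08% of the summed TPM of the pair in naïve ESCs, 3.93% in AKO, 4.01% in DKO, 4.11% in GKO and 20.9% in primed ESCs. Mean Lin28a TPM was 31.4-fold that of Lin28b in naïve ESCs and 3.80-fold in primed ESCs. The sum of the pair was lowest in DKO at 117 TPM and highest in primed ESCs at 187 TPM, with 146 in naïve ESCs, 134 in AKO and 169 in GKO.

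Dis3l2, the exonuclease that removes uridylated pre-let-7, lies on chromosome 1 and was the lowest member. It reached 3.56 and 3.69 TPM in naïve ESCs, 4.33 and 3.95 in AKO, 4.33 and 4.28 in GKO, 4.25 and 4.10 in DKO, and 6.69 and 7.49 in primed ESCs. The 3 knockout lines lay close together and above naïve ESCs, and the primed libraries lay above all others. The log2 difference from naïve ESCs was 0.80 (SE 0.0767) in primed ESCs and 0.15 to 0.20 in the knockout lines.

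Dicer1, which cuts miRNA precursors, lies on chromosome 12 and was lower in GKO, and higher in AKO, DKO and primed ESCs, than in naïve ESCs, without overlap. Its levels were 21.4 and 22.5 TPM in naïve ESCs, 25.8 and 25.1 in AKO, 18.0 and 17.5 in GKO, 26.5 and 27.5 in DKO, and 26.7 and 28.1 in primed ESCs. Both GKO libraries lay below every other library. GKO was -0.29 (SE 0.0523) from naïve ESCs and -0.58 from DKO on the log2 scale, and DKO and AKO were 0.29 and 0.20 above naïve ESCs. The median log2 difference from naïve ESCs over the tested genes of chromosome 12 was 0.16 in AKO, 0.13 in DKO, 0.19 in primed ESCs and 0.02 in GKO, and its part in the Dicer1 values was not tested. For Lin28b and Hmga2 on chromosome 10, Trim71 and Arid3b on chromosome 9 and Dis3l2 on chromosome 1, the chromosome median was within 0.1 of 0 in every comparison between lines. It was -0.13 for that of Lin28a and -0.14 for that of Igf2bp2 in primed ESCs.

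Trim71, a let-7 target that encodes a ubiquitin ligase and mRNA repressor with an NHL domain, lies on chromosome 9 and was the member lower in primed ESCs. It measured 54.5 and 56.4 TPM in naïve ESCs, 54.9 and 56.3 in AKO, 51.3 and 52.2 in GKO, 60.1 and 56.6 in DKO, and 25.0 and 29.1 in primed ESCs. The 8 libraries in naïve medium stayed between 51.3 and 60.1 TPM, and the primed libraries lay below all of them. The log2 difference of primed from naïve ESCs was -1.01 (SE 0.0675), a ratio of 0.488. Differences from naïve ESCs were -0.10 in GKO (0.02 after quantile normalization), 0.07 in DKO and below 0.01 in AKO, and the AKO and naïve libraries overlapped.

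**Figure D2:**
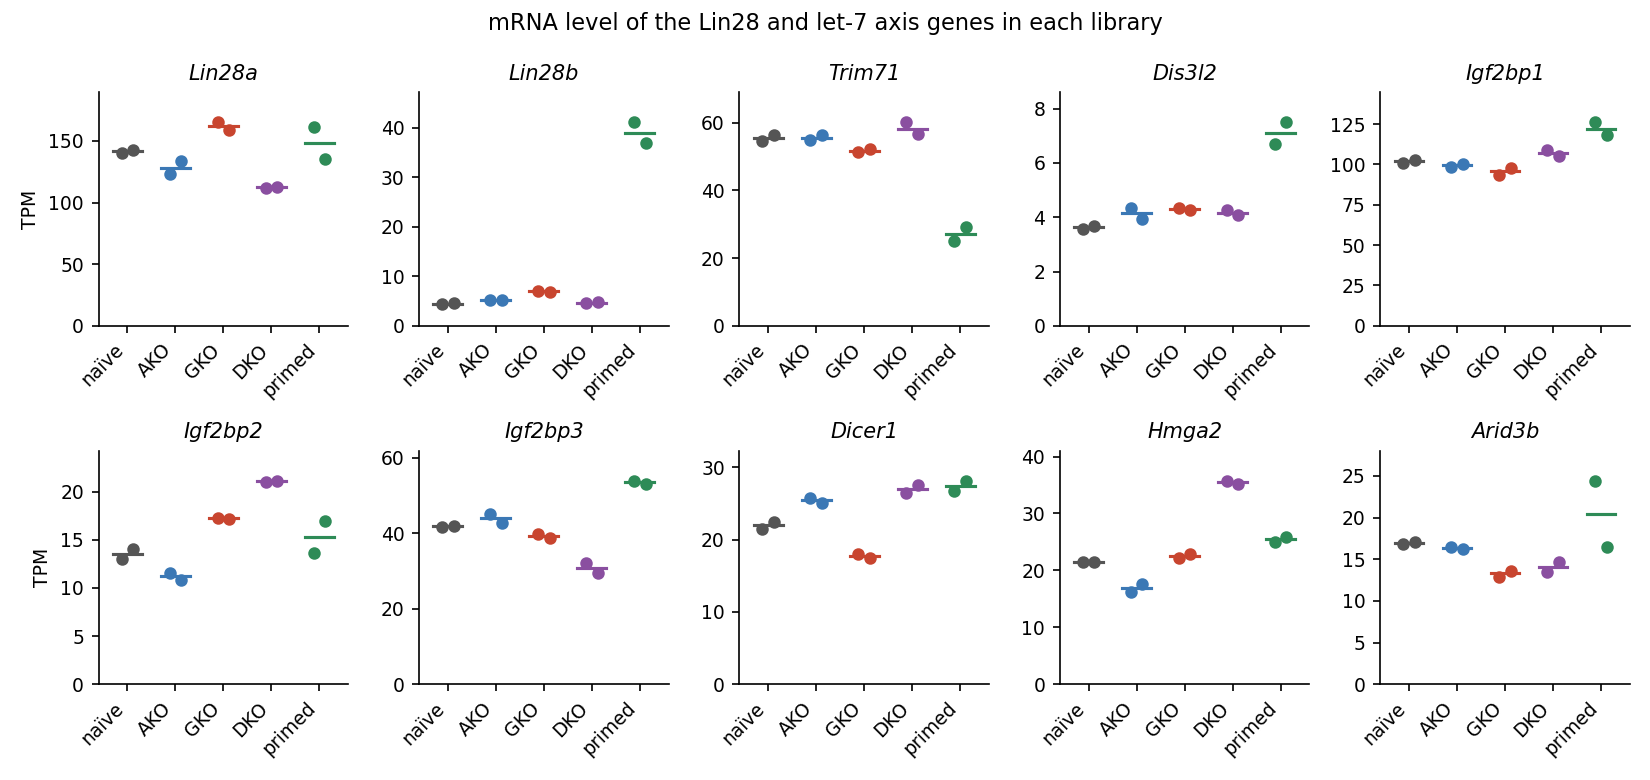
TPM of each member in each library, with points for the 2 libraries of a line and a bar for their mean; every axis starts at 0 and has its own scale. Lin28b is at 36.9 and 41.1 TPM in primed ESCs and at most 7.12 TPM elsewhere, Trim71 is lowest in primed ESCs, and Hmga2 is highest in DKO.

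Hmga2, an AT-hook chromatin protein and a well known let-7 target, lies on chromosome 10. It stood at 21.5 and 21.5 TPM in naïve ESCs, 16.2 and 17.7 in AKO, 22.2 and 22.9 in GKO, 35.7 and 35.2 in DKO, and 25.0 and 25.9 in primed ESCs. The DKO libraries lay above all others and the AKO libraries below all others. DKO was 0.70 (SE 0.0537) above naïve ESCs, 0.63 above GKO and 1.03 above AKO, where the ratio of mean TPM was 2.09. GKO was 0.07 and primed ESCs were 0.23 above naïve ESCs. No neighbouring lines in the order DKO, primed, GKO, naïve, AKO overlapped.

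Arid3b, a DNA-binding protein with an ARID domain on chromosome 9, had the most uneven replicates. It had 16.8 and 17.1 TPM in naïve ESCs, 16.5 and 16.2 in AKO, 12.9 and 13.6 in GKO, and 13.5 and 14.7 in DKO. In primed ESCs the libraries were at 24.4 and 16.5 TPM, which spans the naïve values, so the primed mean of 20.4 rests on replicate 1, without which the log2 difference from naïve ESCs was -0.04. The log2 differences from naïve ESCs were -0.33 in GKO, -0.25 in DKO, -0.05 in AKO and 0.23 in primed ESCs, each with an SE of 0.140.

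Igf2bp1, Igf2bp2 and Igf2bp3 encode mRNA-binding proteins of fetal tissues that stabilise or localise their targets. Igf2bp1, on chromosome 11, measured 101 and 103 TPM in naïve ESCs, 98.7 and 100 in AKO, 93.7 and 97.8 in GKO, 109 and 105 in DKO, and 126 and 118 in primed ESCs. Neighbouring lines in the order of means did not overlap, but the line means in naïve medium stayed between 95.8 and 107 TPM. Primed ESCs were 0.26 (SE 0.0467) above naïve ESCs on the log2 scale, where the median of all tested genes of chromosome 11 was 0.30. After quantile normalization the primed difference was 0.50, and that of GKO was 0.01 in place of -0.09.

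Igf2bp2, on chromosome 16, reached 13.0 and 14.0 TPM in naïve ESCs, 11.6 and 10.8 in AKO, 17.3 and 17.2 in GKO, 21.0 and 21.1 in DKO, and 13.6 and 17.0 in primed ESCs. Both lines without Gys1 lay above naïve ESCs and AKO lay below, and the primed libraries overlapped the naïve ones. DKO was 0.61 (SE 0.0918) above naïve ESCs and 0.85 above AKO, and GKO was 0.33 above naïve ESCs.

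Igf2bp3, on chromosome 6, stood at 41.7 and 42.1 TPM in naïve ESCs, 45.2 and 42.7 in AKO, 39.9 and 38.8 in GKO, 32.1 and 29.5 in DKO, and 53.9 and 53.2 in primed ESCs. DKO lay below all other lines and primed ESCs lay above them. DKO was -0.43 (SE 0.0521) from naïve ESCs and -0.50 from AKO, and primed ESCs were 0.35 above naïve ESCs (0.55 after quantile normalization). GKO was -0.09 from naïve ESCs, or below 0.01 after quantile normalization. The median over chromosome 6 was -0.39 in primed ESCs, 0.14 in GKO and -0.01 in DKO.

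Within the family, Igf2bp1 held 62.8% to 67.3% of the summed TPM in every line. Igf2bp2 and Igf2bp3 took 8.58% and 26.6% in naïve ESCs and 13.3% and 19.4% in DKO, while the sum was 157 and 159 TPM. In primed ESCs the sum was 191 TPM and the shares were 63.9%, 8.03% and 28.1%.

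**Figure D3:**
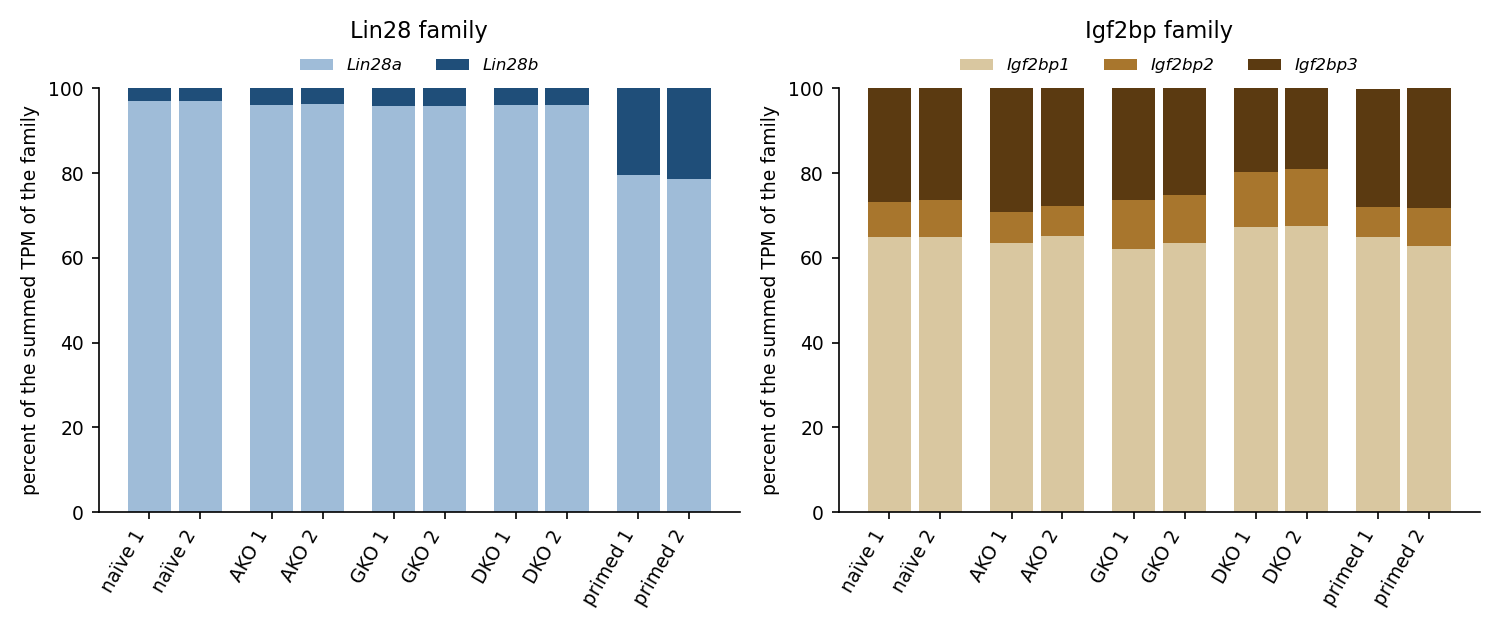
Share of each gene in the summed TPM of the Lin28 pair and of the Igf2bp family, as stacked bars for each library. Lin28b holds 20.9% of the pair in primed ESCs on average against 3.08% in naïve ESCs, and Igf2bp2 holds 13.3% of its family in DKO against 8.58% in naïve ESCs.

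The same fit over all 12060 tested genes (limma, Benjamini-Hochberg adjusted p of 0.05) gives how many members passed its threshold, and nothing is read from these counts because the contrasts were in view when the members were listed. In primed against naïve ESCs 7 of 10 passed, where 80.0% of all genes did. Lin28b, Dis3l2, Igf2bp1, Igf2bp3, Dicer1 and Hmga2 were the 6 higher members, with 37.4% of all genes, and Trim71 was the 1 lower member, with 42.5%. The same 7 were those whose primed and naïve libraries did not overlap, as in 88.5% of all genes. The median log2 difference of the members was 0.24 and that of all genes -0.05, and the median absolute differences were 0.28 and 0.55.

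In GKO against naïve ESCs 3 of 10 passed, where 51.7% of all genes did. Lin28b and Igf2bp2 were higher, with 24.7% of all genes, and Dicer1 was lower, with 27.1%. This count was 6 without primed replicate 1 and without primed replicate 2, with Arid3b, Dis3l2 and Lin28a added. It was 2 without naïve replicate 1, without GKO replicate 1 or without GKO replicate 2, each of which left out Igf2bp2. All 10 members had no overlap between GKO and naïve libraries, as did 81.6% of all genes. In GKO the median log2 difference was -0.01 for the members and for all genes, and the median absolute differences were 0.20 and 0.24.

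In DKO against naïve ESCs 5 of 10 passed, where 46.0% of all genes did. Hmga2, Igf2bp2 and Dicer1 were higher, with 21.7% of all genes, and Lin28a and Igf2bp3 were lower, with 24.3%. Libraries did not overlap for 10 of 10 members and for 78.8% of all genes. In AKO against naïve ESCs limma called 0 of 10, where 0.224% of all genes passed. At an unadjusted p of 0.05, 4 of 10 members (Dicer1, Hmga2, Igf2bp2 and Lin28b) and 10.2% of all genes did. Without primed replicate 1 or without primed replicate 2, the AKO count was 1, Hmga2. Libraries of AKO and naïve ESCs did not overlap for 9 of 10 members, all but Trim71, and for 49.3% of all genes.

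In GKO against DKO 7 of 10 members passed, where 43.5% of all genes did. Lin28a, Lin28b and Igf2bp3 were higher in GKO, with 21.2% of all genes, and Igf2bp1, Igf2bp2, Dicer1 and Hmga2 were lower, with 22.4%. Libraries did not overlap for 9 of 10 members, all but Arid3b, and for 76.7% of all genes. In DKO against AKO 3 passed, where 46.3% of all genes did. Hmga2 and Igf2bp2 were higher, with 22.4% of all genes, and Igf2bp3 was lower, with 23.9%. The count was 5 without primed replicate 1 and without primed replicate 2, with Arid3b and Lin28a added. Libraries did not overlap for 9 of 10 members, all but Dis3l2, and for 77.0% of all genes. These comparisons share lines with those against naïve ESCs and are not independent of them. The median absolute differences of members and of all genes were 0.27 and 0.21 in DKO and 0.15 and 0.07 in AKO, each against naïve ESCs. They were 0.31 and 0.20 in GKO against DKO and 0.16 and 0.21 in DKO against AKO.

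**Figure D4:**
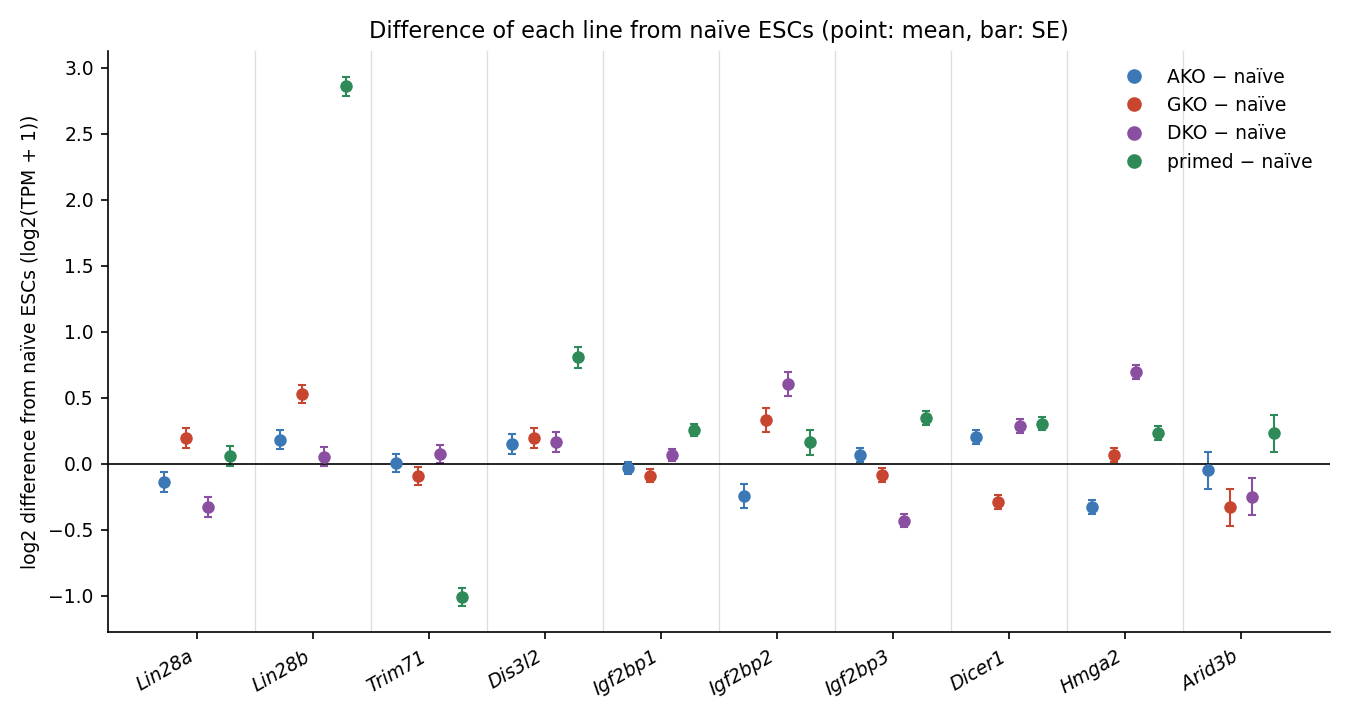
Log2 difference of each line from naïve ESCs for each member, on the log2(TPM + 1) scale; points are differences of line means and bars are SE. Lin28b (2.86) and Trim71 (-1.01) in primed ESCs lie farthest from 0, and among the knockout lines Hmga2 in DKO (0.70) does.

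Lines that differ in Gys1 can be compared with AMPK (GKO minus naïve) and without it (DKO minus AKO). Which clones gave the libraries is not stated, so Gys1 loss cannot be told apart from clone differences. AKO and DKO also differed in Prkaa1, as given above. Hmga2 was 0.07 higher in GKO than in naïve ESCs and 1.03 higher in DKO than in AKO, a difference of 0.96 (SE 0.0759). Igf2bp2 was 0.33 and 0.85 higher, a difference of 0.52. Lin28b was 0.53 higher with AMPK and -0.13 without it, Lin28a 0.19 and -0.18, and Dicer1 -0.29 and 0.08. Igf2bp3 was -0.09 and -0.50. These 6 members passed the threshold for the difference, where 25.8% of all genes did. Trim71, Dis3l2, Igf2bp1 and Arid3b did not, with differences of 0.16, -0.19, 0.19 and 0.13. The median absolute value of this difference was 0.38 over the members and 0.20 over all genes.

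Beside the members, 76 symbols of other pathway genes were taken in 8 lists by known role, of which 74 were in the table and 72 passed the filter. Zcchc11 and Zcchc6, the symbols not in the table, are earlier names of Tut4 and Tut7, which were also listed. The lists too were chosen with earlier results of these data known, and most genes named from them were picked by size of change. Their limma adjusted p-values are therefore a description and not independent support. Ago4, at 0.0320 to 0.189 TPM, and Exosc6, listed at 0 in every library, did not pass the filter, and no level is taken from the latter. In primed against naïve ESCs 62 of 72 passed, 31 higher and 31 lower, and in GKO 42 passed, 17 higher and 25 lower. In DKO 33 passed, 12 higher and 21 lower, and in AKO limma called 0, with 5 at an unadjusted p of 0.05. In GKO against DKO 35 passed, 21 higher and 14 lower. These shares, 86.1%, 58.3%, 45.8% and 48.6% of the 72, stand beside the 80.0%, 51.7%, 46.0% and 43.5% of all genes given above. The DKO count was 20 without naïve replicate 2 or without DKO replicate 2, and the GKO against DKO count was 23 without GKO replicate 1 or without GKO replicate 2.

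Of the 13 tested genes of let-7 and miRNA processing, 6 rose and 6 fell in primed ESCs, 2 rose and 6 fell in GKO, and 3 rose and 3 fell in DKO. Drosha, the nuclease that releases miRNA precursors, fell in GKO from 69.4 and 69.3 TPM to 47.4 and 44.8 (log2 difference -0.58, SE 0.0628, limma adjusted p = 0.000105), and also in DKO by 0.52 (adjusted p = 0.000232). Its fall was larger in primed ESCs, to a mean of 34.6 TPM (-0.98, adjusted p = 6.05e-07). Tut7, a partner of Lin28, rose in DKO from 9.41 and 9.68 to 15.1 and 14.0 TPM (log2 difference 0.56, adjusted p = 0.000745). Tut7 also rose in GKO (0.36, adjusted p = 0.00611) and in primed ESCs (0.43, adjusted p = 0.00114). Prkra, a cofactor of Dicer, rose in primed ESCs from 3.91 and 3.53 to 21.8 and 24.1 TPM (log2 difference 2.34, adjusted p = 1.51e-08) and in DKO to 5.35 and 5.03 (0.39, adjusted p = 0.00508). In GKO Prkra rose to a mean of 5.64 TPM (0.49, adjusted p = 0.00131). Tut1, a terminal uridyl transferase, fell in GKO from 35.7 and 37.1 to 22.0 and 22.2 TPM (-0.69, adjusted p = 1.56e-05), and was lower in GKO than in DKO (-0.48, adjusted p = 0.000142). It fell further in primed ESCs, to a mean of 18.1 TPM (-0.97, adjusted p = 1.85e-07), and less in DKO (-0.21, adjusted p = 0.00945). Tut1 lies on chromosome 19, where the median of tested genes in GKO was -0.40, and its part in the Tut1 value was not tested. Tut4, the main partner of Lin28a, was at a mean of 13.9 TPM in naïve ESCs and 19.9 in primed ESCs (0.48, adjusted p = 0.00121) and at 12.4 to 13.3 in the knockout lines, where it did not pass.

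Among the 8 tested genes of the Argonaute silencing complex, 5 rose and 2 fell in primed ESCs, 1 rose and 2 fell in GKO, and 2 rose and 2 fell in DKO. The 5 were Ago1, Ago3 and the scaffold genes Tnrc6a, Tnrc6b and Tnrc6c, and the 2 were Ago2, the slicing Argonaute, and Cnot1, the scaffold of the deadenylase. Of 13 tested RNA exosome and exonuclease genes, 3 rose and 7 fell in primed ESCs, 4 rose and 4 fell in GKO, and 2 rose and 5 fell in DKO. Exosc5, an exosome core subunit, fell in primed ESCs from 92.4 and 88.9 to 37.6 and 37.9 TPM (-1.24, limma adjusted p = 2.66e-08). In GKO Exosc3, also an exosome core subunit, rose from 32.2 and 33.0 to 47.4 and 46.5 TPM (0.51, adjusted p = 0.00196), and Dis3l, a cytoplasmic exonuclease related to Dis3l2, rose from 7.08 and 6.92 to 11.6 and 10.8 (0.61, adjusted p = 0.00278). Exosc3 rose in primed ESCs as well, to a mean of 57.2 TPM (0.78, adjusted p = 4.91e-05).

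Of 18 described let-7 targets outside the members, 10 rose and 5 fell in primed ESCs, 5 rose and 7 fell in GKO, and 2 rose and 7 fell in DKO. The list median was 0.35 in primed ESCs, -0.09 in GKO and -0.22 in DKO, where that of all genes was -0.05, -0.01 and -0.01. Ccnd2, a D-type cyclin, rose in primed ESCs from 1.03 and 0.511 to 38.3 and 32.2 TPM (4.37, limma adjusted p = 1.19e-08), and Myc fell from 45.3 and 41.8 to 17.2 and 15.4 (-1.36, adjusted p = 9.13e-07). In DKO Irs2, an adaptor of the insulin receptor, rose from 1.64 and 2.05 to 5.17 and 5.02 TPM (1.10, adjusted p = 0.000132). Irs2 also rose in primed ESCs (1.58, adjusted p = 1.78e-06) and in GKO (0.38, adjusted p = 0.0236).

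Hmga1, the relative of Hmga2, fell in DKO from 422 and 411 to 253 and 233 TPM (-0.78, limma adjusted p = 1.77e-05), whereas Hmga2 was higher there. In GKO Hmga1 also fell (-0.32, adjusted p = 0.00139), and in primed ESCs it rose (0.22, adjusted p = 0.00536). Hmga1 has near-identical copies in the mouse genome, so its estimated level is uncertain. Arid3a, the relative of Arid3b, was at 5.59 and 6.33 TPM in GKO and 3.56 and 3.41 in DKO (0.63, adjusted p = 0.00711), and without GKO replicate 2 the adjusted p was 0.0529.

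**Figure D5:**
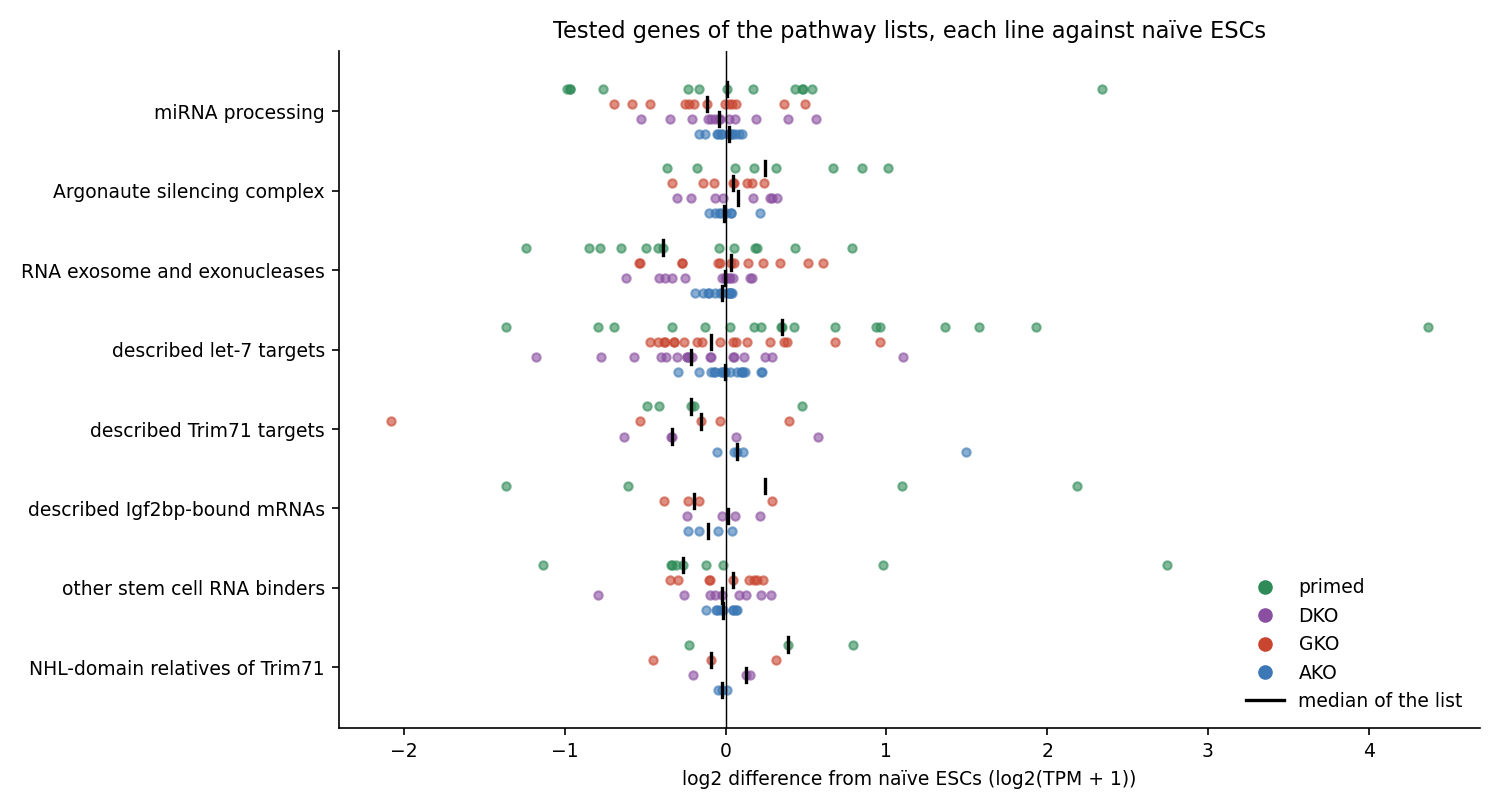
Log2 difference from naïve ESCs of the 72 tested pathway genes, grouped by list, with a point per gene and line and a black tick at the list median. The primed values spread widest, with Ccnd2 at 4.37 and Myc at -1.36, and the AKO values lie between -0.30 and 0.23 apart from Egr1 at 1.49.

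Of 5 described Trim71 targets, 1 rose and 3 fell in primed ESCs, 1 rose and 2 fell in GKO, and 1 rose and 2 fell in DKO. Egr1, an immediate early gene, fell in GKO from 39.2 and 22.1 to 8.93 and 4.24 TPM (-2.08, SE 0.361, limma adjusted p = 0.00138), with wide replicates, and was at 31.9 and 29.8 TPM in DKO. AKO held the highest Egr1 level, 88.1 and 81.7 TPM (1.49 above naïve ESCs, adjusted p = 0.174), and the primed libraries held 34.4 and 18.5 TPM. Of 4 described Igf2bp-bound mRNAs, Igf2 and Cd44 rose and Actb and Myc fell in primed ESCs, Actb and Myc fell in GKO, and limma called 0 in DKO. Igf2, the growth factor that gave the family its name, rose from a mean of 0.790 TPM to one of 7.32 in primed ESCs (2.19, adjusted p = 2.77e-06).

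Of 9 other RNA binders of stem cells, 2 rose and 6 fell in primed ESCs, 3 rose and 2 fell in GKO, and 2 rose and 2 fell in DKO. Msi1, a translational regulator of neural progenitors, rose in primed ESCs from 5.62 and 5.76 to 42.7 and 44.9 TPM (2.74, limma adjusted p = 4.11e-09) and fell in DKO to 2.90 and 2.83 (-0.79, adjusted p = 0.000101). The 5 neuroectoderm markers summed to 63.0 to 64.6 TPM in naïve ESCs, 71.7 to 74.8 in DKO, 103 in GKO and 153 to 168 in primed ESCs, and their part in the Msi1 values was not tested. Tubb3 alone made up 59.0 and 60.6 TPM of that sum in naïve ESCs and 96.2 and 95.3 in GKO, and Sox1, Pax6 and Neurod1 stayed below 1 TPM in the lines in naïve medium. L1td1, an RNA-binding partner of Lin28, fell from 310 and 306 TPM in naïve ESCs to 196 and 99.1 in primed ESCs (-1.14, SE 0.238, adjusted p = 0.00174). Of 3 NHL-domain relatives of Trim71, Trim3 and Trim32 rose and Trim2 fell in primed ESCs, Trim2 rose and Trim32 fell in GKO, and limma called 0 in DKO.

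The genes whose profile over the 10 libraries was most like a member were found by the root mean square (RMS) difference in log2(TPM + 1) after centring on naïve ESCs. The closest was Sh3pxd2b for Lin28b (RMS difference 0.0974, where Lin28b itself lay 1.30 from its naïve mean), followed by Nfasc and Slc22a23. For Trim71 it was Gm45871 (0.0547), followed by Thumpd3 and 2310030G06Rik, and for Dis3l2 Fbxo3 (0.0466), followed by Fgf11 and Zmym2. For Hmga2 it was Baiap2 (0.119), followed by Galk2 and Wrn, and for Igf2bp2 Wrn (0.0980), followed by Celf4 and Ccdc113. Wrn thus stood among the closest genes of both Hmga2 and Igf2bp2. For Lin28a it was Rxra (0.0779), for Igf2bp1 Cep68 (0.0372), for Igf2bp3 Hsf2 (0.0427), for Dicer1 Apopt1 (0.0799) and for Arid3b Psmc5 (0.0837). None of these neighbours was another member.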

How the data were processed

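Bulk RNA from 5 lines with 2 libraries each was used, grouped by the sample records. Per the labels, the authors trimmed reads with Trim Galore 0.6.6, aligned with STAR 2.7.9a and estimated expression with RSEM 1.3.3, and they deposited TPM per protein-coding gene. The records name GRCm38 and the methods GRCm39, and they also differ in the library kit. TPM keeps no depth, so no intervals were derived. Reads shared by similar transcripts are split by RSEM's model.

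Analysis was on log2(TPM + 1). Of 21853 genes, those reaching 1 TPM in 2 or more libraries were kept, which left 12060. These differences understate the change of low genes. limma 3.58.1 in R 4.3.3 was fitted to all 10 libraries with 1 mean per line, an intensity trend and Benjamini-Hochberg adjustment, at a threshold of 0.05. For 2 libraries against 2 the smallest two-sided exact p is 0.333. The fit was tested on simulated data.

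The members and lists were chosen with earlier results of these data known. All members were named. From the pathway lists, up to 3 rises and 3 falls per comparison were named that passed, reached 5 TPM and did not overlap; some of these are not reported here. Tut4, Igf2 and the genes named only as called in a list were added after their values were seen. So were values of named genes in lines beyond those of the rule, such as Drosha in DKO. A gene named for 1 comparison may also have passed in others. Marker lists for naïve, primed and shared pluripotency, fibroblasts, primitive endoderm, trophectoderm, neuroectoderm and 2-cell-like cells were summed. Sites were read from GENCODE vM39 (CCDS, APPRIS, then longest 3′ UTR) and miRNA sequences from RefSeq. Python 3.11.15 with numpy 2.4.6 and matplotlib 3.10.9 was used. Alternatives were a pseudocount of 0.1, no filter, median-ratio scaling, quantile normalization, a filter at a mean of 5 TPM, no trend, a replicate block, only the lines compared, a minimum log2 difference of 1, each replicate left out and, chosen after seeing the data, the primed libraries left out.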

Additional observations from a re-analysis of the deposited data

Results flagged for a closer look

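The difference between lines that differ in Gys1 (GKO minus naïve with AMPK, DKO minus AKO without it) was unlike in the backgrounds for several genes. Gys1 loss cannot be told apart from clone differences here. Values are the difference without AMPK minus the difference with AMPK on the log2 scale. Among pathway genes named above, the limma interaction passed for Msi1 (-0.99, adjusted p = 0.000568), Ccnd2 (-1.39, adjusted p = 0.00225), Tut1 (0.45, adjusted p = 0.00289), Hmga1 (-0.48, adjusted p = 0.00297), Irs2 (0.74, adjusted p = 0.0128) and Exosc5 (0.30, adjusted p = 0.0138). In all, 14 of 72 pathway genes passed, 7 above and 7 below 0, where 25.8% of all genes did.

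Among the members, the difference was 0.96 for Hmga2, -0.66 for Lin28b, 0.52 for Igf2bp2, -0.41 for Igf2bp3, -0.38 for Lin28a and 0.37 for Dicer1, given as a description. Trim71 (0.16) and Igf2bp1 (0.19) had opposite signs in the backgrounds, lower in both GKO libraries than in naïve ESCs and higher in both DKO libraries than in AKO, and the difference did not pass the threshold for either. After quantile normalization GKO lay 0.02 above naïve ESCs for Trim71 and 0.01 above for Igf2bp1, so the signs were then no longer opposite.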

How the results depend on the processing

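With 1 mean per line, a log2 difference can move only with the pseudocount, a scaling or a left-out library of a compared line. The filters, the trend, the replicate block and the choice of other lines in the fit leave it as it was. Of 1572 log2 differences recomputed under an alternative, many of which could thus not change, 11 changed sign, and 0 of these had passed the threshold. They were Lin28a and Arid3b in primed ESCs (-0.06 and -0.04 without primed replicate 1), Trim71 in AKO (-0.02 without naïve replicate 1, -0.01 without AKO replicate 2), Dis3l2 in DKO against AKO (-0.04 without AKO replicate 2, -0.01 without DKO replicate 1) and, after quantile normalization, Dis3l2 in DKO against AKO (-0.06), Lin28b in DKO (-0.01) and Trim71, Igf2bp1 and Igf2bp3 in GKO (0.02, 0.01 and below 0.01). Quantile normalization also added Lin28a to the members called in primed ESCs and GKO and Igf2bp1 in DKO and in DKO against AKO, and it removed Igf2bp2 in GKO against DKO. A minimum log2 difference of 1 left 2 members in primed ESCs (Lin28b and Trim71), 0 in GKO, 0 in DKO, 0 in GKO against DKO and 1 in DKO against AKO (Hmga2), and 12, 1, 2, 4 and 3 pathway genes. With only the compared lines in the fit, 6 members passed in GKO against naïve ESCs and 5 in DKO against AKO. With the primed libraries left out, a setting chosen after seeing the data, these were 6 and 5, and AKO against naïve ESCs had 1 member and 2 pathway genes, and the interaction had 27 pathway genes. Without a filter on low values, 21 pathway genes passed in DKO against naïve ESCs. With each library left out in turn, members called ranged from 7 to 9 in primed ESCs, 2 to 6 in GKO, 5 to 6 in DKO, 0 to 1 in AKO, 5 to 8 in GKO against DKO and 3 to 5 in DKO against AKO. Pathway genes called ranged from 52 to 63, 28 to 50, 20 to 40, 0 to 2, 23 to 43 and 21 to 46 in the same order, and 10 to 27 for the interaction, where the highest counts of the AKO and interaction results came without primed replicate 1 or 2. The DKO against AKO count was 21 without AKO replicate 1 and 23 without AKO replicate 2, DKO replicate 1 or DKO replicate 2. Where a line kept 1 library, it was assumed to vary like the others. The highest pathway counts in GKO, DKO, GKO against DKO and DKO against AKO also came with a primed replicate left out. The cause of these shifts was not tested. TPM keeps no depth, so what depth limits is unknown.

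The replicate numbers did not pair the samples: correlations of same-numbered deviations ran from -0.128 to 0.078. With the replicate block, 7, 3, 5, 0, 7 and 3 members and 62, 39, 31, 0, 35 and 32 pathway genes passed in the order above, and 14 for the interaction.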

Other observations

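Genes with a let-7 seed match followed by A in the 3′ UTR were set beside all genes. The 493 such tested genes had a median log2 difference of 0.09 in primed against naïve ESCs, where the median of all 11569 tested genes with a 3′ UTR was -0.05 and that of the 10144 without a match -0.06. In GKO against naïve ESCs the medians with the match and of all genes were 0.02 and -0.01, in DKO 0.01 and -0.01, and in AKO -0.02 and -0.01. The 204 tested genes with 2 or more matches of either form had medians of 0.04 in primed ESCs, 0.02 in GKO, 0.01 in DKO and -0.02 in AKO. The sets were not matched for 3′ UTR length.

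Sums of the other marker lists are given as values, without a test. Trophectoderm markers summed to 51.9 to 52.8 TPM in GKO and 31.4 to 32.1 in naïve ESCs. Tfap2c was at 23.2 and 24.3 TPM in GKO and 6.68 and 6.29 in naïve ESCs, and Cdx2 at 6.62 and 7.27 and at 2.57 and 2.66. Eomes was lower in GKO, at 17.7 and 17.0 TPM against 19.8 and 20.3, as was Gata3, at 0.0480 and 0.101 against 0.911 and 0.629, and Elf5 was below 0.1 TPM in naïve ESCs. Fibroblast markers summed to 9.53 to 10.7 TPM in GKO, 9.11 to 15.3 in primed ESCs and 3.25 to 3.85 in naïve ESCs, with Dcn and Lum below 0.1 TPM in every line. Thy1 made up 7.14 and 8.48 TPM of the GKO sum and 3.00 and 2.44 of the naïve sum. Primitive endoderm markers summed to 1.11 to 2.40 TPM in the lines in naïve medium and to 2.87 and 7.18 in the primed libraries, where Sox17 was at 3.04 TPM in replicate 1 and 0.303 in replicate 2. The 2-cell-like markers summed to 0.967 to 1.24 TPM in naïve ESCs, 0.0540 to 0.121 in GKO and 0.0150 to 0.0950 in primed ESCs. Shared pluripotency markers summed to 1090 to 1242 TPM in naïve medium and 706 to 764 in primed ESCs.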
